A study of Mus musculus with 36 samples.

Results

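Dym encodes dymeclin, a protein that associates with the Golgi apparatus and takes part in moving cargo between the endoplasmic reticulum and the Golgi. In people, loss of both copies causes Dyggve-Melchior-Clausen dysplasia, a disorder of skeletal growth with intellectual disability. TET1 is an enzyme that oxidises 5-methylcytosine and thereby starts its removal, and sites where it acts can gain methylation when the enzyme is lost.

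Methylation over mouse Dym (ENSMUSG00000035765.10) was followed CpG by CpG. The gene lies on the plus strand of chr18:75018781-75286964 in the mm10 build, and all CpGs of the gene body and 5 kb on each side were taken. That window held 736 CpG sites listed in any of 36 embryos, of 3493603 on the autosomes. Of these, 645 were covered by at least 5 reads in at least 1 embryo and 130 were covered that deeply in all 35 embryos compared, of 921363 such sites on the autosomes. The gene was chosen by a measured value, the methylation level of its intronic site in Tet1 knockout against wild-type brains of these same libraries. Differences between knockout and wild type in Dym are therefore given as a description, with no p.

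The libraries came from single brains of embryos at embryonic day 11.5, sequenced by reduced representation bisulfite sequencing (RRBS) after an oxidative step, so that the values report 5-methylcytosine and not its oxidised forms. All mice were of the Tet1<tm1Koh> line, congenic on 129S6, in which a cassette inserted at the first coding ATG disrupts Tet1. Compared were embryos with no disrupted allele (wild type, WT), with 1 (heterozygous, HET) or with both alleles disrupted (knockout, KO), from HET dams adapted to custom diets with 30, 3 or 0.1 ppm folic acid (FA), an excess, a control and a depleted amount. Every diet also held succinylsulfathiazole, an antibiotic that suppresses folate made by gut bacteria, so all groups share it. By the genotype in their titles, and after 1 shallow HET library of 0.1 ppm was left out, the 35 embryos compared were 3 WT, 5 HET and 6 KO embryos on 30 ppm, 4 WT, 3 HET and 5 KO embryos on 3 ppm, and 2 WT, 2 HET and 5 KO embryos on 0.1 ppm, from 12 litters, each within 1 diet. A whole brain was measured, so a different mix of cells and a different level per cell cannot be told apart.

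The Tet1 locus gave 3 libraries a level that went against their genotype label. They were known from earlier results of these data. At chr10:62884019, the CpG in the Tet1 gene body that separated the other KO from the other WT embryos most, and whose WT and KO ranges are thus set by that choice, the level was between 0 and 7.32% in 7 WT, between 8.33 and 69.2% in 10 HET and between 69.6 and 100% in 15 KO embryos. The library labelled KO replicate 1 of 30 ppm stood at 45.0%, the library labelled WT replicate 2 of 30 ppm at 36% and the library labelled WT replicate 2 of 0.1 ppm at 40.0%. All 3 values lie in the wide range of the HET embryos, and results are given with and without these libraries. The sample list of the study gives the first of these embryos as HET, against its title, and the others as WT. Groups follow the titles throughout. The mean coverage per listed CpG ranged from 10.9 to 61.5 reads over the libraries. HET replicate 2 of 0.1 ppm, the shallowest library, was left out of the comparisons and entered only as an alternative setting.

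The KO gain in Dym was short and sat inside an intron. It covered 12 measured CpGs within 244 bases, at chr18:75047198-75047442, 28539 bases downstream of the main start. In the main transcript, Dym-201, this is intron 2, between exon 2 (chr18:75043079-75043269) and exon 3 (chr18:75052981-75053033). It is also where a shorter noncoding transcript of the GENCODE annotation, Dym-202, begins, with its first exon at chr18:75047324-75047470. In the 1 kb around the gain the GC content was 44.5% with 21 CpGs and an observed over expected CpG ratio of 0.426, against 60.7%, 82 CpGs and 0.890 in the 1 kb around the main start.

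The borders of the gain were set by a KO minus WT difference of at least 20 points, and each is known only as far as CpGs were measured. On the 5′ side the outermost CpG inside, at position 75047198, had a mean level of 61.5% in WT and 89.8% in KO. It was covered at least 5 times in 26 embryos, among them 7 WT and 9 KO. The nearest CpG measured outside it, 980 bases away at 75046218, stood at 88.9% in WT and 91.7% in KO. On the 3′ side the last CpG inside, 75047442, had 17.8% in WT and 55.2% in KO, and the next one measured, 3382 bases further at 75050824, had 63.6% in WT and 67.3% in KO. The gain thus lay in a dip in WT methylation, between measured CpGs with a higher WT level. Mean KO levels inside it went down to 48.8% at 75047386, below both outside CpGs, so the dip was raised in KO but not filled throughout.

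Cutting sites of the 2 enzymes used for the libraries divide the gain. A TaqI site at chr18:75047197-75047200 and an MspI site at chr18:75047253-75047256 bound a short fragment, and the second MspI site at chr18:75047454-75047457 ends a longer one. In the short fragment, 4 CpGs from 75047233 to 75047254 were covered at least 5 times in all 35 embryos. The next 7 CpGs, in the longer fragment, were all covered that deeply in 25 embryos. The 4 shared CpGs are what the 1 kb tile chr18:75047001-75048000 holds in most comparisons, here called the gain tile. Their pooled calls, 51 to 457 in an embryo, give 1 level per embryo. A read counts once at each CpG it covers, and the median coverage was 21 or 22 reads per CpG, so the reads are fewer than the calls.

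At these 4 CpGs the level rose from WT through HET to KO embryos. On 30 ppm, the WT embryos stood at 32.0, 35.3 and 52.1%, the last being the library labelled WT replicate 2. The HET embryos of that diet stood at 48.2, 52.5, 56.2, 68.6 and 74.6%. The 6 embryos labelled KO ranged from 55.2% to 98.4% with a median of 86.1%, and the lowest was the library labelled KO replicate 1, while the other 5 had 84.6% or more. The genotypes overlapped on 30 ppm only through these 2 doubted libraries.

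On 3 ppm, the WT embryos had 30.1, 37.1, 39.4 and 46.5%. The HET embryos had 49.2, 58.9 and 64.2%, and the KO embryos had 83.8, 91.0, 95.3, 96.1 and 97.4%. The 3 genotypes did not overlap on this diet. On 0.1 ppm, the WT embryos had 34.9 and 50.4%, the higher being the library labelled WT replicate 2, the HET embryos had 50.6 and 70.6%, and the KO embryos had 87.1, 88.9, 91.0, 93.2 and 94.6%. Here too the genotypes did not overlap, although the doubted WT library lay just below the lower HET embryo.

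**Figure D1:**
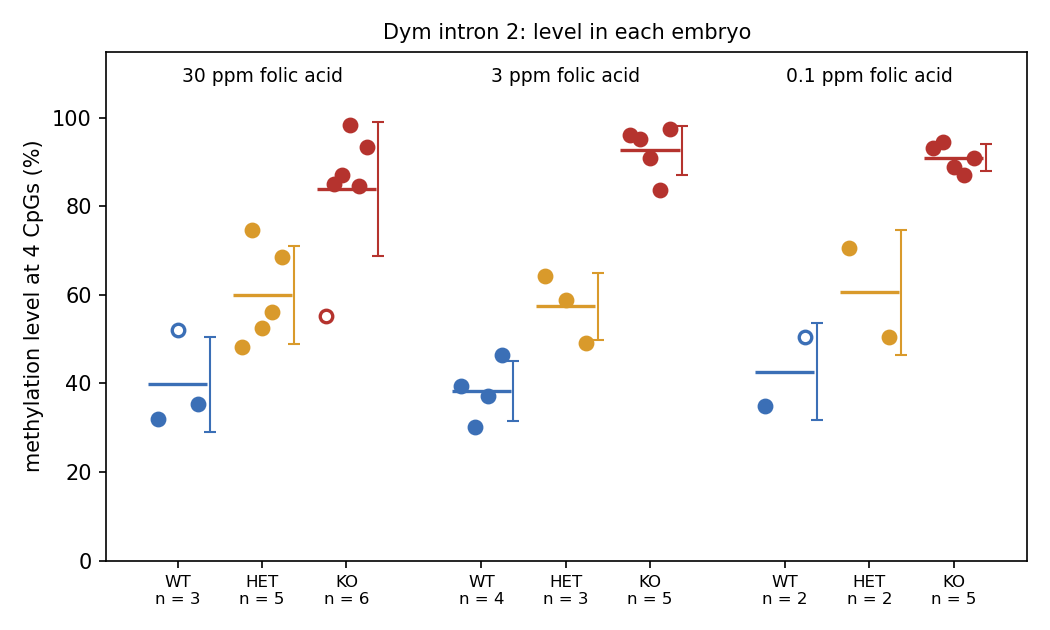
Methylation level (%) at the 4 CpGs of Dym intron 2 measured in every embryo, by genotype and diet. Points are embryos, open points the 3 libraries whose Tet1 values go against their label, horizontal lines group means and bars the SD. Without the open points, WT embryos lie between 30.1 and 46.5%, HET embryos between 48.2 and 74.6% and KO embryos between 83.8 and 98.4%.

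Over all diets the mean level was 39.8% ± 8.02 (SD, n = 9) in WT, 59.4% ± 9.60 (SD, n = 10) in HET and 88.9% ± 10.1 (SD, n = 16) in KO. Without the 3 doubted libraries it was 36.5% ± 5.38 (SD, n = 7) in WT and 91.1% ± 4.82 (SD, n = 15) in KO, and the 3 genotypes no longer overlapped on any diet. All 15 of these KO embryos lay above every HET embryo, and all 10 HET embryos lay above every WT embryo. The 3 libraries were set aside for a Tet1 level that itself follows the gain over the embryos, so this separation is a description.

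The values that chose the gene were the KO minus WT differences of the gain tile. They were 44.2 points on 30 ppm, 54.4 points on 3 ppm and 48.3 points on 0.1 ppm. Their mean, 49.0 points, ranked 19 among 74133 tiles of 1 kb measured in all 35 embryos. Without the 3 doubted libraries the difference was 56.1 points on 30 ppm and 56.1 points on 0.1 ppm, and that on 3 ppm holds none of them.

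HET embryos did not enter the choice, but the WT and KO embryos they are compared with did, and a gene chosen for low WT and high KO levels leans both differences upward. KO minus HET is therefore given with no p, and the p-values of HET minus WT at the gain tile may be too small and are no independent support for the gain. Tests were made with a quasi-binomial logistic model over all 1 kb tiles of the autosomes, and a tile was called at a Benjamini-Hochberg adjusted p under 0.05 and a difference of at least 10 points. Over all diets, with diet in the model, the gain tile was higher in HET than in WT embryos by 19.1 points (adjusted p = 0.0170). Of all tiles tested in that comparison 0.259% were called, and of the 18 tiles of the Dym window 1 was called, the gain tile. The gain tile was higher in KO than in HET embryos by 29.9 points. In that comparison 2 of 18 Dym tiles met the call rule, the gain tile by choice and the tile of intron 16, where 8.50% of all tiles did. The exact permutation test of the level per embryo, with labels permuted within diets, gave p = 0.000850 for HET against WT (adjusted over the 15 tests of its family 0.00638). From CpGs covered in the embryo itself the permutation test did not pass, at 14.8 points (adjusted p = 0.165). At the 7 following CpGs of the gain it did not pass either, at 8.29 points (permutation adjusted p = 0.375). At the gain tile without the 3 doubted libraries, HET minus WT was 23.7 points and KO minus HET 31.8 points.

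Within single diets the HET minus WT difference passed the test on 3 ppm only. It was 20.2 points on 30 ppm (quasi-binomial adjusted p = 0.587, 5 HET and 3 WT embryos), where 0% of all tiles were called. That 0 is a count of the quasi-binomial test, in which 638 tiles reached an unadjusted p under 0.05 with 10 points, and limma also called 0. On 3 ppm it was 19.2 points (quasi-binomial adjusted p = 0.0234), with 0.812% of all tiles called and 1 of 22 Dym tiles. On 0.1 ppm, where 4 embryos allowed all 12 CpGs to enter the tile, it was 11.1 points (quasi-binomial adjusted p = 0.731), with 0.0950% of all tiles called and 0 of 19 Dym tiles, of which 2 had an unadjusted p under 0.05 and 0 were called by limma. At the 4 shared CpGs the difference on 0.1 ppm was 17.9 points. Labelled sex as a covariate was no separate setting on 0.1 ppm. WT replicate 2 was the only female of the 4 embryos there, so WT replicate 1 alone stayed as the WT arm. On 30 ppm leaving out 1 WT library changed the call. Without the library labelled WT replicate 2 the difference on 30 ppm was 26.4 points (quasi-binomial adjusted p = 0.000341). On 0.1 ppm it was 22.1 points without WT replicate 2 and -0.0445 points without WT replicate 1, each leaving 1 WT embryo.

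The call on 3 ppm was also fragile. Without HET replicate 1 of 3 ppm the difference was 15.8 points (adjusted p = 0.242), and without HET replicate 2 it was 18.4 points (adjusted p = 0.0766). With litter as a block it was 18.1 points (adjusted p = 0.257). The exact permutation of 3 HET against 4 WT embryos cannot give a p below 0.0286 and gave an exact p of 0.0571. With single embryos left out, the pooled comparison lost its call only without WT replicate 1 of 30 ppm, at 17.8 points (adjusted p = 0.0872). By limma the pooled comparison was not called, at 19.7 points (limma adjusted p = 0.0515).

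As a share of the KO minus WT difference, the HET minus WT difference at the 4 CpGs was 39.9% over all embryos and 41.9% without the doubted libraries. By diet it was 46% on 30 ppm, 35% on 3 ppm and 37% on 0.1 ppm. These shares are a description, since their denominator is the contrast that chose the gene.

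**Figure D2:**
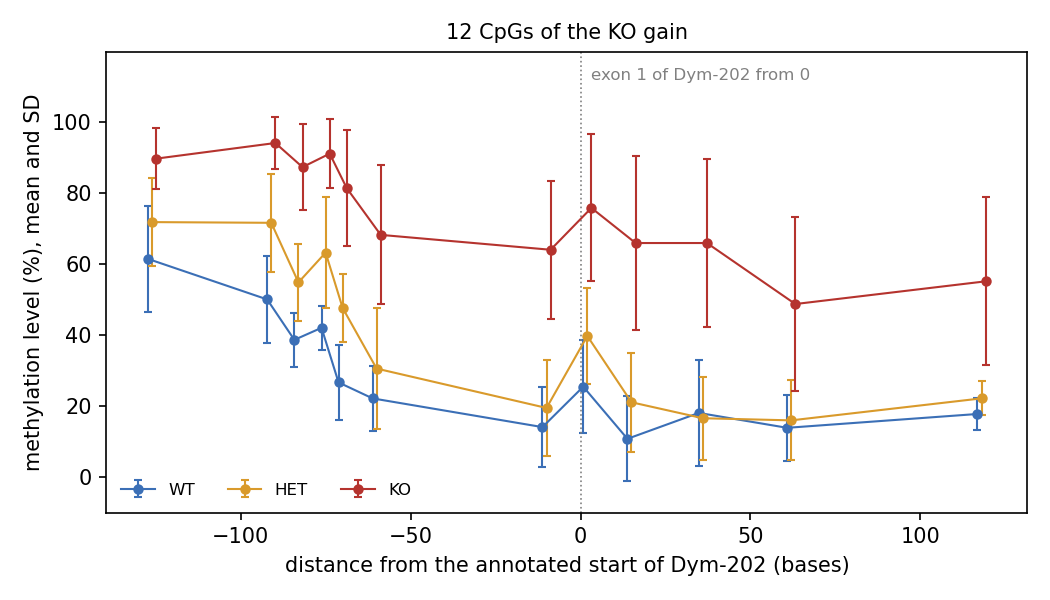
Mean methylation level (%) with SD over embryos at the 12 CpGs of the gain, against the distance in bases from the annotated start of Dym-202, for WT, HET and KO embryos. The leftmost 5 CpGs belong to the shorter fragment, and from position -60 on the HET mean is 39.8% or less while the KO mean is 48.8% or more.

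Along the gain, WT methylation was highest at the 5′ end. At the CpG 126 bases before the Dym-202 start it was 61.5% ± 15 (SD, n = 7), at the CpG 70 bases before it 26.7% ± 10.6 (SD, n = 9), and at the CpG 15 bases after it 10.8% ± 12 (SD, n = 7). KO embryos had 89.8% ± 8.55 (SD, n = 9), 81.5% ± 16.3 (SD, n = 16) and 66.0% ± 24.4 (SD, n = 12) at the same CpGs. HET embryos had 71.9% ± 12.4 (SD, n = 10), 47.7% ± 9.70 (SD, n = 10) and 21.1% ± 13.9 (SD, n = 7). The CpG 70 bases before the start lies inside the MspI site and had a lower level than its 3 neighbours of the fragment in each genotype. The part of the enzyme site in that was not tested. The CpG 126 bases before the start, which sets the 5′ border, lies inside the TaqI site and had a median of 12 reads. The part of that site in its level was not tested either.

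The 2 fragments were then compared within the same embryos, those that covered both sets of CpGs and are not doubted. There the first 4 CpGs had 34.7% ± 3.74 (SD, n = 5) in WT, 59.2% ± 11.5 (SD, n = 7) in HET and 90.3% ± 4.88 (SD, n = 10) in KO. The next 7 CpGs had 13.4% ± 5.19, 23.7% ± 10.0 and 67.1% ± 9.41 in the same embryos. HET minus WT was thus 44.0% of the KO minus WT difference at the first set and 19.2% at the second. All 7 HET embryos lay above every WT embryo at the first set and 4 of 7 at the second, and all 10 KO embryos lay above every HET embryo at both.

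Averaged over the diets with equal weight, HET minus WT in these embryos was 22.8 points at the first set and 12.1 points at the second. The difference between these averages, 10.6 points, had an exact permutation p of 0.20 with labels permuted within diets, a test chosen after the values were seen, so a larger HET effect at the first set was not shown. With the doubted libraries, 7 HET against 7 WT embryos, the difference between the sets was 8.55 points (exact permutation p = 0.178). On 30 ppm HET minus WT at the second set was -10.2 points over all libraries and -2.32 points without the doubted ones, with 4 HET embryos at 11.5 to 22.0% and 2 WT embryos at 19.7 and 35.6%, the latter from the library labelled WT replicate 2. The KO embryos that are not doubted ranged from 55.7 to 84.4% at the second set, and the library labelled KO replicate 1 of 30 ppm had 13.5% there, within the HET range of 11.5 to 42.3%.

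No diet difference at the gain tile passed the test. In WT embryos the level on 30 ppm was 1.52 points above that on 3 ppm (quasi-binomial adjusted p = 1.00), and on 0.1 ppm it was 4.35 points above (adjusted p = 0.954). Both signs turned without the doubted WT libraries, to -4.64 and -3.40 points. In HET embryos the differences were 3.01 points for 30 ppm (adjusted p = 0.967) and 2.39 points for 0.1 ppm (adjusted p = 0.985). In KO embryos they were -8.73 points for 30 ppm (adjusted p = 0.729) and -1.78 points for 0.1 ppm (adjusted p = 0.992), and leaving out the library labelled KO replicate 1 of 30 ppm moved the former to -2.96 points. The groups overlapped in each of these comparisons.

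The share of all tiles called in these diet comparisons was 0% for 30 ppm in WT, 0.131% for 0.1 ppm in WT, 0.0201% for 30 ppm in HET, 0.0866% for 0.1 ppm in HET, 0% for 30 ppm in KO and 0% for 0.1 ppm in KO. Among the 17 to 23 Dym tiles tested in each, neither the quasi-binomial test nor limma called any. At an unadjusted p under 0.05 there was 1 Dym tile in all 6, in KO on 30 ppm. Over all tiles, the 3 comparisons with 0 calls had 320, 728 and 436 tiles at an unadjusted p under 0.05 with at least 10 points, and limma called 0 in each.

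No difference in the KO effect between diets passed the test. Against the effect on 3 ppm, the interaction term for 30 ppm was -10.2 points (adjusted p = 0.785) and the term for 0.1 ppm -6.13 points (adjusted p = 0.985). Both terms compare the KO minus WT values that chose the gene. Their p-values are therefore not independent of that choice, and no likeness of the KO effect between diets is read from them. Without the doubted libraries these interactions were 1.68 and 1.62 points. At the 7 following CpGs, a setting chosen after seeing the data, the term for 30 ppm was -35.6 points (exact permutation p = 0.0143, adjusted 0.107). There it was -15.7 points without the doubted libraries. Over all tiles, the quasi-binomial test called 0% for both terms and limma called 0, with 1445 and 1302 tiles at an unadjusted p under 0.05 and 10 points. None of the 17 Dym tiles reached that p. KO embryos with a neural tube defect differed from KO embryos of normal phenotype by -1.27 points (adjusted p = 0.963, 5 and 7 embryos, diet in the model), where 0.00605% of all tiles were called. None of the 21 Dym tiles was called by either tool, and none had an unadjusted p under 0.05. Embryos labelled inHB did not enter that comparison.

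**Figure D3:**
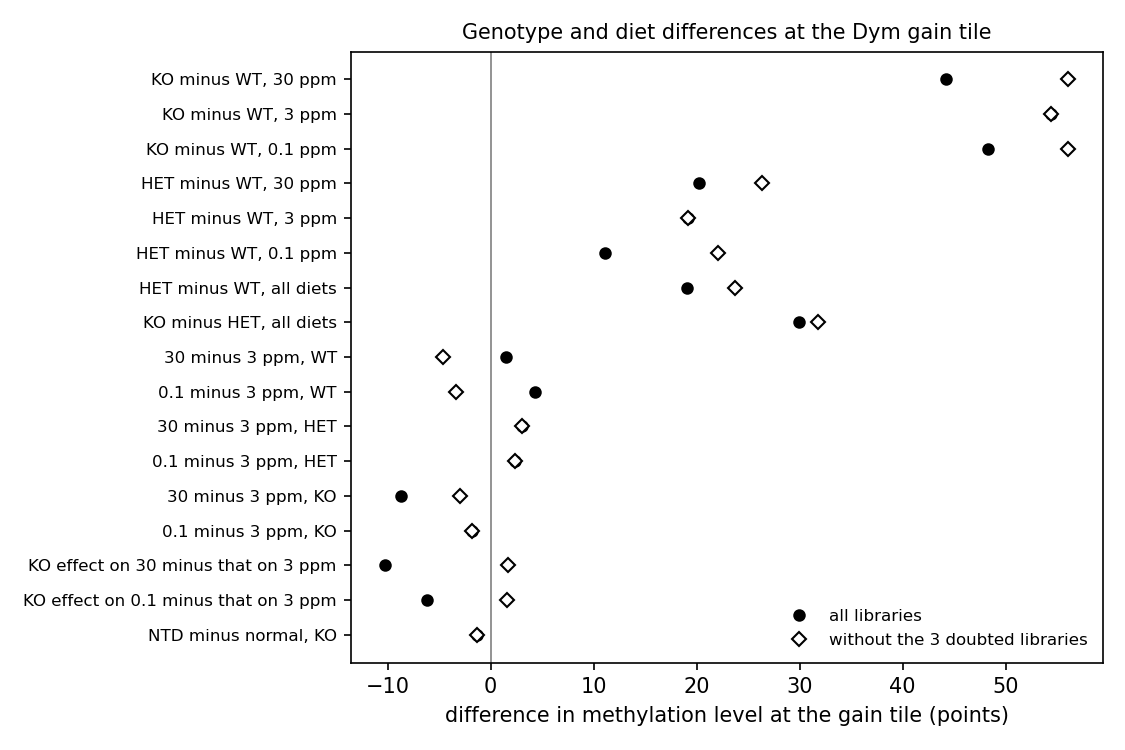
Difference in methylation level at the gain tile (points) for each comparison, with all libraries (filled circles) and without the 3 libraries that go against their label (open diamonds). Genotype differences lie between 11.1 and 56.1 points, while the diet, interaction and neural tube defect differences lie between -10.2 and 4.35 points with all libraries. HET minus WT on 0.1 ppm rests on 12 CpGs, diets within HET on 5 and all others on 4.

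By labelled sex, the level in female minus male embryos was -3.99 points within genotype and diet (permutation p = 0.283, 17 females and 18 males). Without the 3 doubted libraries, all labelled female, the difference was -6.79 points (permutation p = 0.00426, adjusted 0.0213). With other CpGs or coverage minimums it did not pass the test. HET replicate 1 of 3 ppm is labelled male, but its file lists 235 CpGs of chromosome Y, where the 18 libraries labelled female list 120 to 350 and the other 17 labelled male 1374 to 7450. Without this embryo, a setting added after the data were seen, the difference was -3.10 points (permutation p = 0.447) with the doubted libraries and -6.23 points (permutation p = 0.00932, adjusted 0.0466) without them. A difference by sex thus passed only with the doubted libraries left out. The 15 tests of its family include KO minus HET and HET minus WT, whose small p-values lean on the choice of the gene. They can lower the adjusted p of the sex test, so that value may be too small and no effect of sex is read from it.

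The rest of the gene had a promoter of low methylation and a methylated body. Expression of Dym was not examined here. Within 1 kb to either side of the main start, 28 CpGs had a mean level of 0.726% ± 0.371 (SD, n = 9) in WT, 0.604% ± 0.379 (SD, n = 10) in HET and 1.04% ± 0.379 (SD, n = 16) in KO, and no embryo exceeded 2.09%. Single CpGs there were higher in KO. The CpG at 75018579 had 2.14% in WT, 2.17% in HET and 7.24% in KO. In intron 1, measured in 28 embryos and so outside that mean, 75019382 had 0.242, 0.781 and 6.84%, and 75019394 had 3.01, 1.14 and 11.7% in WT, HET and KO. In the rest of the gene body, 85 CpGs had 81.2% ± 1.41 in WT, 83.4% ± 2.10 in HET and 86.2% ± 1.78 in KO (SD, same n). Left out of these 85 by their own level were 6 body CpGs with a WT mean under 10% and a low level in every embryo. They are described below, and the body mean would be lower with them.

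Of these 85 CpGs, 69 had a higher mean in KO than in WT, with a median difference of 3.41 points, and 54 had a higher mean in HET than in WT, with a median of 1.15 points. The same shares over all autosomal CpGs were not counted, so nothing particular to Dym is read from these counts. The highly methylated CpGs were set beside those of the genome. At 65 body CpGs with a WT level of at least 70%, KO minus WT was 2.37 points and HET minus WT 0.943 points, beside 2.39 and 1.03 points at the 287334 autosomal CpGs of that level.

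**Figure D4:**
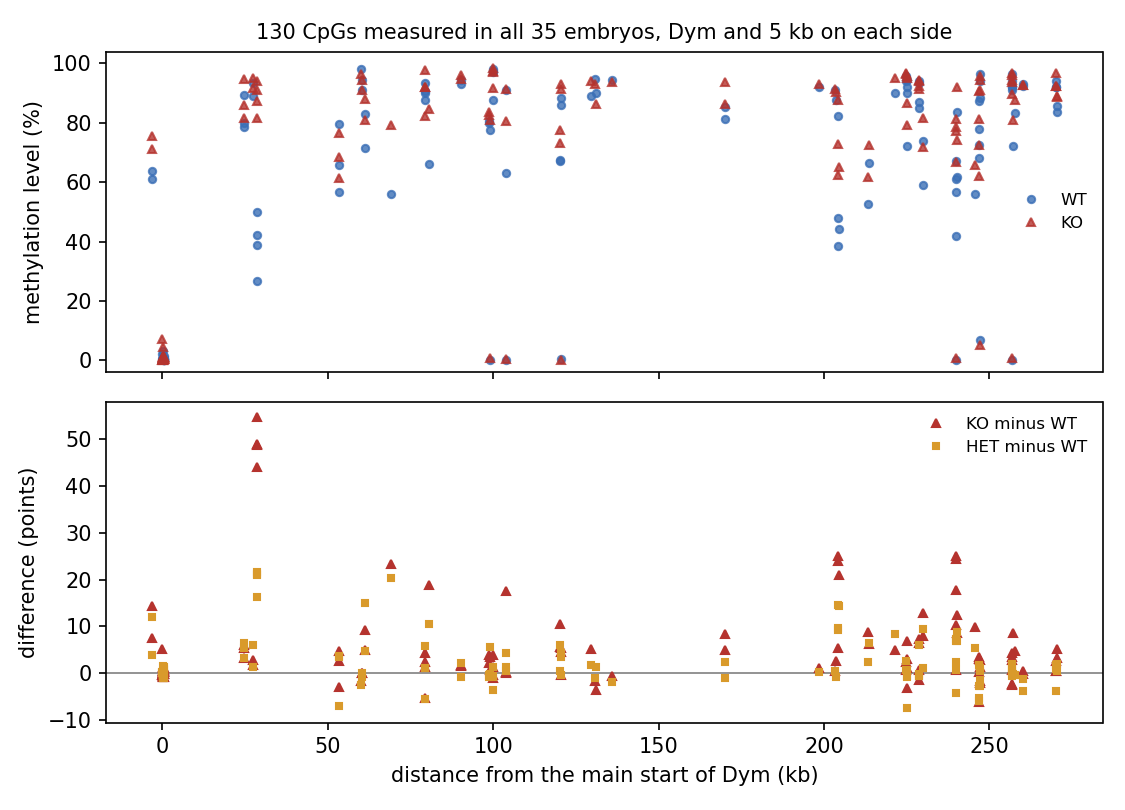
The 130 CpGs of the Dym window measured in all 35 embryos, against the distance in kb from the main start. The upper panel shows mean WT and KO levels (%), the lower panel KO minus WT and HET minus WT in points. The 4 CpGs of the gain in intron 2 differ by 44.1 points or more between KO and WT, and the next largest differences, up to 25.1 points, lie in introns 8, 14 and 16.

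Outside the gain, 6 CpGs shared by all embryos had a KO level at least 20 points above WT. The share of all autosomal CpGs with such a difference was not counted, so this count is only a description. One was in intron 8 at 75087895, with 55.9% in WT, 76.3% in HET and 79.3% in KO. A group of 3 lay in intron 14, and 2 lay in intron 16. Their WT levels ranged from 38.5 to 56.8%. A choice by a gain of at least 20 points leaves out the most methylated CpGs, so no likeness to the gain is read from this. Among the 19 Dym tiles measured in all embryos, the 16 tiles besides the gain tile and those of introns 14 and 16 differed between KO and WT by 0.202 to 5.80 points on average over diets.

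The tile of intron 14 (chr18:75223001-75224000) had HET embryos between WT and KO. Its level was 54.1% ± 4.93 (SD, n = 9, range 46.7 to 59.5%) in WT, 65.0% ± 5.89 (SD, n = 10, 59.2 to 75.7%) in HET and 71.7% ± 8.54 (SD, n = 16, 49.4 to 83.7%) in KO. HET minus WT over all diets, with 5 CpGs, was 9.56 points (quasi-binomial adjusted p = 0.0431), under the 10 points set for a call, and KO minus HET was 6.78 points. The adjusted p of HET minus WT was 0.0522 with no SD filter and 0.0831 with a dispersion from all 35 embryos. The difference met the call rule at 11.3 points without the doubted libraries (adjusted p = 0.00567), 13.5 points with litter as a block (adjusted p = 0.0408) and 10.5 points by limma (adjusted p = 0.0307). By limma it was the 1 Dym tile called, since the gain tile had an adjusted p of 0.0515. Within single diets HET minus WT was 8.36 points on 30 ppm, 11.8 points on 3 ppm and 8.53 points on 0.1 ppm. The tile was called on none of them (quasi-binomial adjusted p = 0.855, 0.222 and 0.940). It was named for its KO minus WT difference against the same WT embryos, so its p-values for HET minus WT may be too small.

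The tile of intron 16 (chr18:75258001-75259000) had a smaller HET minus WT difference than the tile of intron 14, and no test of that was made. WT embryos had 46.2% ± 4.57 (SD, n = 9, 39 to 55%) and HET embryos 48.9% ± 5.11 (SD, n = 10, 41.1 to 55.1%). KO embryos had 63.1% ± 6.17 (SD, n = 16, 48.5 to 72.7%). At 12 CpGs, HET minus WT over all diets was 3.33 points (quasi-binomial adjusted p = 0.434). Without the doubted libraries it was 6.70 points (adjusted p = 0.0160), under the 10 points set for a call. KO minus HET was 13.9 points and met the call rule, although the tile was described for its KO level in the same embryos. Without the doubted libraries all KO embryos, 57.0% or more, lay above all HET embryos. In the contrast that chose the gene, 2 of 21 Dym tiles met the call rule on 30 ppm (the gain tile and intron 14), where 5.66% of all tiles did so as higher in KO. The gain tile is in these counts by choice, and nothing is read from them. On 3 ppm 3 of 19 met it, beside 16.3% of all tiles, and on 0.1 ppm 3 of 17, beside 11.2%, in both cases the gain tile and the tiles of introns 14 and 16.

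Among the 19 Dym tiles measured in all 35 embryos, the highest mean WT levels were 95.1% at chr18:75118001-75119000, 90.7% at chr18:75243001-75244000 and 90.4% at chr18:75098001-75099000, in introns 9, 16 and 8. Their KO levels were 96.1, 92.6 and 91.2%. The lowest of the 19 were the promoter tiles at 0.507 and 0.749%, followed by the gain tile. At 6 single CpGs in introns 9, 10, 13 and 16 the level was at most 13.6% in every embryo, although CpGs within 150 bases had mean WT levels of 56.6 to 93.0%. Their mean level was 1.30% in WT, 0.971% in HET and 1.32% in KO. Whether sequence differences between these mice and the reference genome, or the enzyme sites, have a part in these values was not tested. The CpG at 75258638 is among those of the intron 16 tile chr18:75258001-75259000 and lowers the level given for that tile in each genotype.

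The tiles elsewhere in the genome whose level followed that of the Dym gain most closely over the 35 embryos are given as a description, since all such tiles share the same libraries and the same genotype contrast. Among 3737 tiles with an SD of at least 10 points, 463 had a Pearson r of at least 0.9 with the gain tile. The closest, one per nearest gene, was in Lrrc10 on chromosome 10 (r = 0.964), a gene known for its part in heart muscle, with mean levels of 33.2, 41.7 and 62.4% in WT, HET and KO. A tile in Rnf165 on chromosome 18 followed (r = 0.956). Next came a tile in Tet1 itself (r = 0.955), which holds the CpG used for the label check, a tile in Atp8b1 on chromosome 18 (r = 0.954, 21.3, 37.5 and 79.2%) and a tile in Gja4, a gap junction gene of blood vessels (r = 0.952).

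Neighbouring genes on chromosome 18 were counted in the same way. Of 26 genes within 500 kb, a list that includes Gm8807 and 2010010A06Rik inside the Dym window, 10 had tiles tested in KO against WT on 3 ppm, and 11 of their 48 tiles (22.9%) were called higher, where 16.3% of all tiles were, and none lower, with a median difference of 4.98 points against 3.76 points over all tiles. The called tiles lay in Smad7, an inhibitor of TGF-beta signalling (4 of 7 tiles, at most 17.4 points), Ctif (3 of 20, at most 16.6 points), Myo5b (3 of 12, at most 16.4 points) and Acaa2 (1 of 2, 13.7 points). In HET against WT on 3 ppm the quasi-binomial test called 0 of 48 tiles, where 0.812% of all tiles were called, and limma 0. At that share 0 of 48 is no result about these genes. Of them, 4 tiles had an unadjusted p under 0.05, and the largest difference was 10.1 points in Ctif (adjusted p = 0.188).

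Among genes of Golgi organisation, a smaller share of tiles was called than over the genome, and no test of that difference was made. A list of 44 names for Golgi structure, vesicle tethering and coat proteins was taken, in which Gmap210 is another name of Trip11, so that it holds 43 genes. All 43 were found in the annotation and 28 had tiles tested in KO against WT on 3 ppm. Of 67 tiles 6 were called higher (8.96%, where 16.3% of all tiles were) and none lower, with a median of 1.66 points against 3.76 points over all tiles. They lay in Golga4, a golgin of the trans-Golgi (21.9 points, adjusted p = 0.00335), Cog1, a subunit of a tethering complex (21.3 points, adjusted p = 0.00753), Stx5a, a Golgi SNARE (20.5 points, adjusted p = 2.53e-07), and Sec24d, a coat protein of vesicles leaving the endoplasmic reticulum (3 of 4 tiles, at most 16.6 points, adjusted p = 0.0240). For HET against WT on 3 ppm, quasi-binomial calls numbered 0 of 62 tiles, again beside 0.812% of all tiles, and limma calls 0, with 6 at an unadjusted p under 0.05, and the largest difference was 10.2 points in Stx5a (adjusted p = 0.0592).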

How the data were processed

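RRBS libraries were made from 36 single brains digested with MspI and TaqI. Per the labels and the study's methods, the authors trimmed reads (Trim Galore 0.6.10), aligned them to mm10 with Bismark 0.24.1 and removed duplicates by molecular identifiers with UMI-tools, with versions from the submitters' processing notes. Each line of the deposited tables is a CpG with its methylated fraction and its read count, both computed by the authors. Fraction times count was whole (within 0.01) on every line of all 36 tables, so methylated and unmethylated counts were recovered. The authors' lists of differentially methylated regions hold their own findings and were not used. The genotype, diet, litter, sex and phenotype of an embryo came from its title.

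For each comparison, CpGs with 5 or more reads in all of its embryos were kept and their reads summed in 1 kb tiles of the autosomes with at least 3 such CpGs and an SD of at least 2 points. A quasi-binomial logistic model per tile, its dispersion shrunk by the empirical Bayes method of limma and never below 1, gave two-sided F tests, adjusted by the Benjamini-Hochberg method over all tiles. It was tested on simulated data. Diet was a covariate where diets were pooled. Levels of single embryos were tested by two-sided permutation within diets (or genotype and diet), 15 tests in a family. That family includes KO minus HET and HET minus WT, which lean on the choice of the gene and can lower the adjusted p of the other tests. The level per embryo pools 51 to 457 calls over the shared CpGs. A read counts once per CpG in these, so the precision is lower than that of as many separate reads.

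The gain tile was the Dym tile with the largest mean of the 3 KO minus WT differences among tiles measured in all 35 embryos. Other tiles were named if called in a comparison not used for the choice or if among the 3 highest or lowest in WT. The gain was followed outward from the CpG with the largest difference while KO exceeded WT by 20 points. Like tiles were the 5 of highest Pearson r, at most 1 per nearest gene. The tile of intron 14, single CpGs and the genes of the lists with calls were named from their values. The members, lists and tests were chosen with earlier results of these data known. Alternatives were a coverage minimum of 10, no SD filter, a minimum difference of 20 points, limma 3.58.1 in R 4.3.3 on mean CpG levels, tiles shifted by 500 bases, a dispersion from all 35 embryos, litter as a block, sex as a covariate, the shallow library, leaving out the 3 doubted libraries and leaving out each embryo. The alternatives without the CpG in the MspI site and with the 7 following CpGs were chosen after seeing the data. GENCODE vM21 was used for annotation. Replicates are embryos, some of them littermates. Sequence of the region is not printed.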

Additional observations from a re-analysis of the deposited data

Results flagged for a closer look

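Over 5 groups of 4 to 6 embryos, 3 of them also examined at the 7 following CpGs, so 8 times in all, 1 library stood apart from the rest of its group. The library labelled KO replicate 1 of 30 ppm had a level of 55.2% at the 4 shared CpGs, below the other 5 KO embryos of that diet, which had 84.6 to 98.4%. Chance alone puts about 1 in 20 groups past the limit used. The same library is 1 of the 3 whose Tet1 level goes against the label, and its level lies within the HET range of 48.2 to 74.6%. The sample list of the study gives this embryo as HET, against its title. At the following CpGs it was also lowest, at 13.5%, without passing that limit. Without it the KO mean on 30 ppm was 89.8% ± 6.01 (SD, n = 5) in place of 84.0% ± 15.1 (SD, n = 6).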

How the results depend on the processing

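Of 244 values recomputed under other settings, 208 kept their direction and their side of the threshold, and of 182 with 1 embryo left out 167 did. The KO minus WT values among them were not tested. They counted as kept when they kept their sign and moved by less than the larger SD of the groups compared. Where a value moved, the cause was not tested.

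For HET minus WT on 3 ppm the call was lost with no SD filter (19.2 points), a minimum of 20 points (19.2), limma (19.3), a dispersion from all 35 embryos (19.2) and litter as a block (18.1). Over all diets it was lost with a minimum of 20 points (19.1) and by limma (19.7, adjusted p = 0.0515, over all alternatives 0.000133 to 0.0872). HET minus WT passed on 30 ppm without the 3 doubted libraries (26.4). On 0.1 ppm it was 22.1 without them, with 1 WT embryo left. With sex as a covariate on 0.1 ppm, WT replicate 1 alone stayed as the WT arm. The 11.1 kept for that setting is not adjusted for sex, so it is no separate result. Without the doubted libraries, for the tile and for the single level alike, 30 minus 3 ppm in WT was -4.64 and 0.1 minus 3 ppm in WT -3.40, the interactions were 1.68 and 1.62, and the sex difference of the single level passed at -6.79, and at -6.23 when the embryo with a doubted sex label was also left out, a setting added after seeing the data. The adjusted p of the sex test may be too small, since its family includes tests that lean on the choice of the gene. With the shallow library, 0.1 minus 3 ppm in HET was -0.0357.

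For the single level from CpGs covered in the embryo itself, HET minus WT over all diets was 14.8 and no longer passed, and 30 minus 3 ppm in HET was -12.9, 0.1 minus 3 ppm in HET -10.1 and 0.1 minus 3 ppm in KO 1.07. Without the CpG in the MspI site the neural tube defect difference was 0.360. At the 7 following CpGs, HET minus WT was -10.2 on 30 ppm and 8.29 over all diets, 30 minus 3 ppm in HET -12.4, 0.1 minus 3 ppm in KO 1.31 and the neural tube defect difference 6.51. There 30 minus 3 ppm was 16.2 in WT and -19.4 in KO, and the interaction for 30 ppm was -35.6 (exact permutation p = 0.0143, adjusted 0.107). Without the doubted libraries these were 8.32, -7.35 and -15.7 (exact permutation p = 0.114, adjusted 0.50), while HET minus WT was -2.32 on 30 ppm and 12.1 over all diets. The settings without the MspI CpG and at the 7 following CpGs were chosen after seeing the data.

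With 1 embryo left out, HET minus WT ranged from 16.3 to 26.4 on 30 ppm, 15.8 to 23.3 on 3 ppm, -0.0445 to 22.1 on 0.1 ppm and 15.8 to 22.4 over all diets. The 30 minus 3 ppm difference ranged from -4.64 to 5.42 in WT and -1.08 to 6.09 in HET, and 0.1 minus 3 ppm from -3.40 to 12.1 in WT and -5.89 to 10.7 in HET. The interaction for 0.1 ppm ranged from -13.9 to 1.62 and the neural tube defect difference from -3.52 to 0.217. Where an arm kept 1 embryo, it was assumed to vary like the others. Litter as a block could not be fitted for HET minus WT on 0.1 ppm or for the neural tube defect comparison. No paired analysis by replicate number was possible because the numbers only name embryos. Precision is limited by 2 to 6 embryos a group and a level from as few as 51 calls over the shared CpGs in an embryo, with a read counted once per CpG.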
